A study of Mus musculus with 9 samples.

Results

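The genes described here are 38 of the 24170 mouse genes in the deposited counts, a fixed list of transporters and enzymes that carry glucose through glycolysis, store it as glycogen, and pass lactate and pyruvate between cells and into mitochondria. They are fixed by name, with no measured value in the rule, but the list was chosen with earlier results of these data known. Their levels were compared isoenzyme by isoenzyme between 3 purified primary mouse cell cultures, each with 3 biological replicate experiments. Astrocytes, the star-shaped support cells of the brain, were taken from cortices at postnatal days 1 to 3 and kept in culture for about 21 days. DRG cultures hold sensory neurons from the dorsal root ganglia of E13.5 embryos and were kept for about 2 weeks. OPC, the oligodendrocyte progenitor cells, were purified from cortices at postnatal days 6 to 9 and cultured for 6 to 7 days. Both glial types came from mice of either sex, and the labels name no treatment, allele or strain. Donor age, tissue and time in culture differed between the groups, so they cannot be told apart from cell type.

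Glycolysis turns glucose into pyruvate through a chain of enzymes, most of which exist as several isoenzymes coded by different genes or spliced from the same gene. Pyruvate is reduced to lactate by lactate dehydrogenase, or enters mitochondria and is oxidised by the pyruvate dehydrogenase complex, which the pyruvate dehydrogenase kinases switch off. In the nervous system astrocytes are known as the main store of glycogen and as a source of lactate for neurons, and monocarboxylate transporters carry that lactate across the membranes of both.

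Each library held between 30710093 and 53594210 reads assigned to a transcript. Each library is named by its type and replicate number (Astrocytes 1). Levels are given in CPM, the reads of a gene on a common scale of assigned reads per library, with scaling by the trimmed mean of M values (TMM). Fold changes and adjusted p-values come from edgeR's quasi-likelihood test over 14848 genes with Benjamini-Hochberg adjustment, and a gene was called at an adjusted p under 0.05. The labels were checked against marker genes. The summed level of 8 astrocyte markers was 6000 to 7556 CPM in Astrocytes, 766 to 1052 in OPC and 8.84 to 27.4 in DRG. That of 8 DRG neuron markers was 18287 to 25010 CPM in DRG against at most 150 elsewhere, with Prph at 0 counts in every library, and that of 6 OPC markers was 5075 to 6749 CPM in OPC against 281 to 1211 in Astrocytes and at most 24.9 in DRG. Gjb6, on the astrocyte list, was at 0.00921 CPM in Astrocytes. Slc1a2, on the same list, was at a mean of 3.66 CPM in Astrocytes and 4.43 CPM in OPC. Gpr17, on the OPC list, was at 786 CPM in OPC 1 against 9.44 and 9.84 in OPC 2 and 3. All 7 microglia markers had means of at least 5 CPM in Astrocytes and summed to 2424 CPM in Astrocytes 1 against 423 and 389 in Astrocytes 2 and 3, while 8 fibroblast and mural cell markers, led by Acta2 and Tagln, summed to 1153, 8256 and 9747 CPM there. DRG held 8.86 to 15.5 CPM of the microglia markers and 245 to 537 CPM of the fibroblast and mural markers, and OPC held 15.2 to 168 and 2.3 to 2.82 CPM. Acta2 (3683 against 41 CPM), Tagln (2509 against 32.8) and Pdgfrb (0.587 against 0.071) had higher means in Astrocytes than in DRG. Col1a1 (73.2 against 89), Col1a2 (98.8 against 119), Col3a1 (20.2 against 134), Dcn (0.309 against 3.43) and Lum (0.206 against 4.48) had lower ones. The part of these other cells in the results below was not tested, and in bulk RNA fewer cells of a type and less RNA per cell cannot be told apart.

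DRG libraries held higher levels than either glial type for most glycolytic steps, and OPC held the lowest levels of Slc2a1, Pfkp, Pdk1 and Pygb. Of the 38 genes, 18 were higher and 5 lower in DRG than in Astrocytes, 60.5% called in all, where 60.2% of all genes were called, 27.4% higher and 32.8% lower. Against OPC, 25 were higher in DRG and 1 was lower (68.4% called, where 59.5% of all genes were called, 28.4% higher and 31.1% lower). Between the glial types, 3 were higher and 15 lower in OPC than in Astrocytes (47.4% called, where 51.8% of all genes were called, 26.3% higher and 25.5% lower). The share called was therefore near that of all genes in DRG against Astrocytes, and the directions differed: the median log2 fold change of the 38 was 0.83 in DRG against Astrocytes, 1.46 in DRG against OPC and −0.34 in OPC against Astrocytes, where all genes had medians of −0.13, −0.08 and 0.09. With at least a 2-fold difference, 15 were higher and 5 lower in DRG than in Astrocytes (22.1% and 28.2% of all genes), 21 and 1 in DRG than in OPC (25% and 24.9%), and 2 and 13 in OPC than in Astrocytes (18.1% and 22.9%). All 3 comparisons share libraries, so their counts are not independent.

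**Figure D1:**
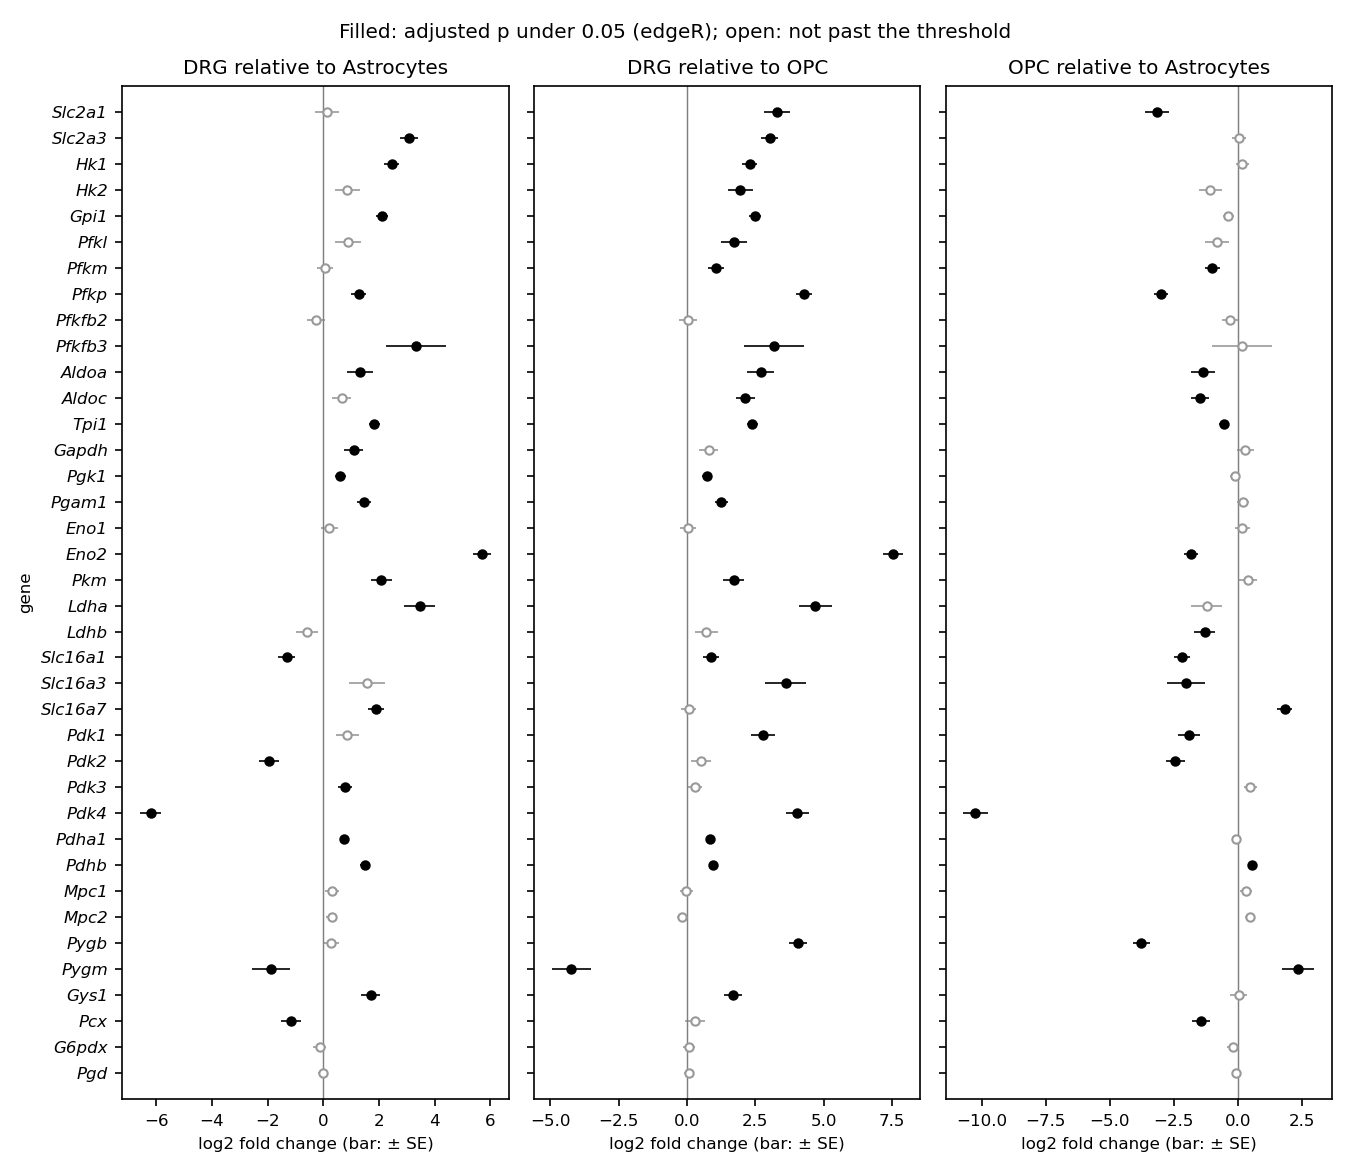
Log2 fold change (x axis, bars ± SE from edgeR) of the 38 genes (y axis, in pathway order) in each comparison, with filled points for genes past an adjusted p of 0.05. Eno2 lies farthest to the right against both glial types, at 5.70 and 7.52, and Pdk4 farthest to the left in DRG and in OPC against Astrocytes, at −6.20 and −10.24.

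Reads were counted per RefSeq transcript, and a read shared by transcripts of the same gene was set aside as ambiguous. Ambiguous reads made up 22% to 24.7% of each library. For 27 of the 38 genes there is 1 transcript, and their counts are not split by isoform. The other 11 (Aldoa, Gapdh, Hk1, Ldha, Pcx, Pfkfb2, Pfkfb3, Pfkm, Pfkp, Pkm and Slc16a3) have several, and their counts cover only the stretches that tell isoforms apart. Of the 27 genes with 1 transcript, 11 were higher and 4 lower in DRG than in Astrocytes (55.6% called, where 60.2% of all genes were). In DRG against OPC 17 were higher and 1 lower (66.7% called, where 59.5% of all genes were). In OPC against Astrocytes 3 were higher and 10 lower (48.1% called, where 51.8% of all genes were). All 38 passed the filter on low counts, but Pfkfb3, Ldha, Slc16a3 and Pygm did so with few reads (at most 78, 214, 51 and 418 in any library), and Pdk4 with 1 to 5 reads in OPC.

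Pyruvate kinase, which makes pyruvate in the last step of glycolysis, was counted as both of its splice forms, M1 and M2. Pkm lies on the plus strand of chromosome 9 (59656576 to 59679372, GRCm38), and the forms differ by a pair of coding exons of 167 bases of which each transcript keeps 1. M1, the form known from adult muscle and neurons, keeps the upstream exon at chr9:59675029-59675195, and M2, known from growing cells, keeps the downstream exon at chr9:59675568-59675734, each as exon 9 of 11 of its transcript. Both exons are shown because they are what tells the 2 enzymes apart. The upstream exon holds all 167 bases specific to the M1 transcript, while the M2 transcript has 558 specific bases, most of them in other exons. They are aligned without gaps, in the 5′ to 3′ direction of the gene, with capitals at the 64 positions where they differ. The other 103 positions (61.7%) are identical.
Pkm M1 exon: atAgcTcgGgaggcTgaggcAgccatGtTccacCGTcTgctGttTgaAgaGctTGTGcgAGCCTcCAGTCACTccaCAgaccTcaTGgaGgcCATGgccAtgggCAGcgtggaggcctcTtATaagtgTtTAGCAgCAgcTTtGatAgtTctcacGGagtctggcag
Pkm M2 exon: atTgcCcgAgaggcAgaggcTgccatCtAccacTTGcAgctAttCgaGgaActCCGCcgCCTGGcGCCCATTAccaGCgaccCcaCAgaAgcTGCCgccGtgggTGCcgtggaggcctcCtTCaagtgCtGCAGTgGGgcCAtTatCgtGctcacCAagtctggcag

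The splice forms split by cell type. The M1 transcript held 9.26%, 5.76% and 4.58% of the isoform-specific Pkm reads in Astrocytes 1, 2 and 3, with 95% exact binomial (Clopper-Pearson) intervals of 8.58 to 9.99, 5.16 to 6.4 and 4.05 to 5.16. In OPC it held 6.62%, 7.56% and 6.87%, with intervals of 6.03 to 7.26, 6.97 to 8.17 and 6.38 to 7.39. In DRG it held 98.5%, 99.6% and 99.2%, with intervals of 98.2 to 98.8, 99.5 to 99.7 and 99 to 99.3. All 3 DRG libraries therefore lay above all 6 glial libraries with no overlap, and the glial groups overlapped each other. These intervals cover counting error only.

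In reads, M1 had 613, 319 and 259 in Astrocytes, 428, 575 and 674 in OPC, and 7715, 35412 and 28028 in DRG. M2 had 6004, 5221 and 5390 in Astrocytes, 6034, 7034 and 9140 in OPC, and 118, 146 and 239 in DRG. A fit over all 16010 transcripts tested, chosen after these shares had been seen, called both forms in both comparisons with DRG, where 60% (against Astrocytes) and 59.1% (against OPC) of transcripts were called. M1 was 65.6-fold higher in DRG against Astrocytes (log2 6.04 ± 0.48 SE, adjusted p = 1.13e-05, edgeR) and 46.2-fold above OPC (5.53 ± 0.47, adjusted p = 1.79e-05, edgeR). M2 was 29.2-fold lower in DRG than in Astrocytes (−4.87 ± 0.33, adjusted p = 4.6e-06, edgeR) and 37.6-fold lower than in OPC (−5.23 ± 0.34, adjusted p = 5.16e-06, edgeR). Between OPC and Astrocytes, where 50.9% of transcripts were called, neither form was, with log2 differences of 0.51 for M1 (adjusted p = 0.315) and 0.36 for M2 (adjusted p = 0.308, edgeR).

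The sum of both forms was 124, 132 and 156 CPM in Astrocytes, 265, 749 and 730 in DRG, and 144, 155 and 236 in OPC. It was 4.23-fold higher in DRG against Astrocytes (log2 2.08 ± 0.38, adjusted p = 0.00134) and 3.26-fold above OPC (1.70 ± 0.38, adjusted p = 0.00378, edgeR), with all DRG libraries above all glial ones. M1 can be counted only over its 167 specific bases and M2 over 558, so this sum is not the level of the gene, and the shares are not molar.

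**Figure D2:**
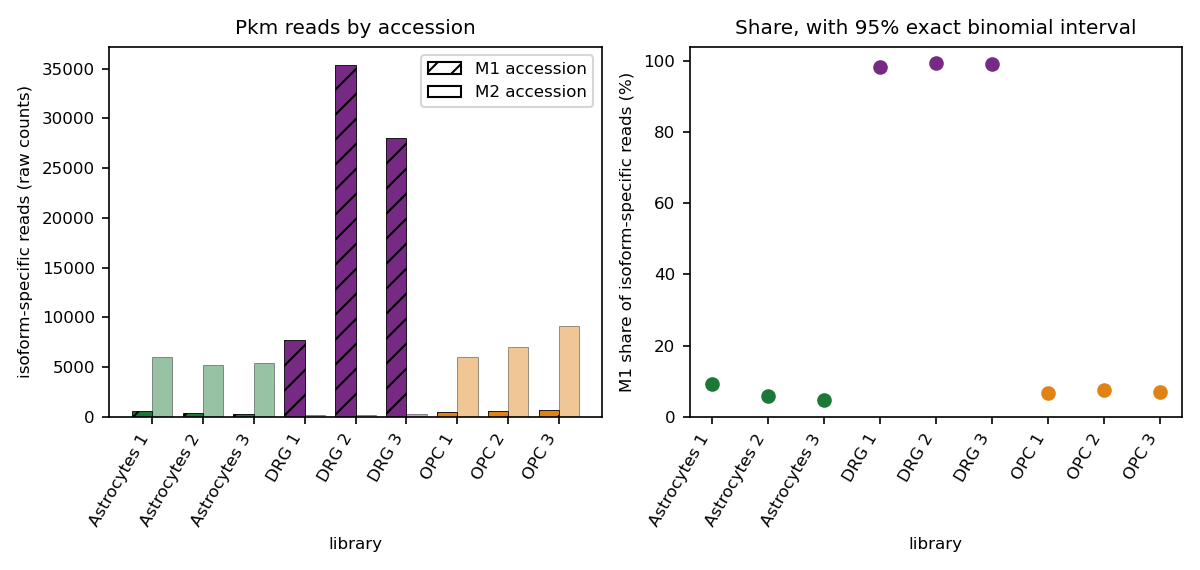
Left, isoform-specific Pkm reads per library (y axis, raw counts; hatched bars M1, plain bars M2); right, the M1 share of those reads in percent with its 95% exact interval, which is smaller than the points. The 3 DRG libraries lie between 98.5% and 99.6% and the 6 glial libraries between 4.58% and 9.26%.

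Glucose enters through the carriers Slc2a1 (GLUT1, of glia and the blood-brain barrier) and Slc2a3 (GLUT3, the high-affinity neuronal carrier). Slc2a1 was at 344, 141 and 198 CPM in Astrocytes, 176, 428 and 145 in DRG, and 29.4, 20.6 and 26.7 in OPC. Every OPC library lay below all others, while Astrocytes and DRG overlapped. Slc2a1 was 9.75-fold higher in DRG than in OPC (log2 3.29 ± 0.48, adjusted p = 0.000372, and 2.65 without DRG 2) and 8.91-fold below Astrocytes in OPC (−3.15 ± 0.48, adjusted p = 0.000695, edgeR). DRG and Astrocytes differed by 0.13 ± 0.44 (adjusted p = 0.814).

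Slc2a3 was at 34, 80.3 and 48.5 CPM in Astrocytes, 410, 525 and 440 in DRG, and 54.7, 51.9 and 62 in OPC. Here the DRG libraries stood above both glial types, which overlapped. It was 8.44-fold higher in DRG against Astrocytes (log2 3.08 ± 0.31, adjusted p = 3.93e-05) and 8.15-fold above OPC (3.03 ± 0.31, adjusted p = 4.48e-05, edgeR). Per kilobase of transcript, the scale on which genes can be compared, Slc2a1 was at 69.9 and Slc2a3 at 13.7 CPM per kb in Astrocytes, against 76.6 and 116 in DRG and 7.85 and 14.2 in OPC. Between OPC and Astrocytes the log2 difference of Slc2a3 was 0.05 ± 0.28 (adjusted p = 0.898, edgeR).

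To compare isoenzymes within a library, 16 ratios were formed and compared between cell types. Transcript length cancels there for genes with 1 transcript. For Hk1, Pfkm, Pfkp, Pfkfb2, Pfkfb3, Aldoa, Ldha and Slc16a3 it need not cancel. Their countable length depends on the mix of isoforms, which can differ between cell types. Of 48 such comparisons, 27 had groups that did not overlap: 10 of DRG against Astrocytes, 8 of DRG against OPC and 9 of OPC against Astrocytes (for single genes, a different quantity, 60.2%, 59.5% and 51.8% were called). How often ratios of other gene pairs fail to overlap was not examined, so the count is not read as a trait of these genes. Among the 27 were 2 of Ldhb to Ldha, where the Ldha reads come from 1 transcript. With 3 libraries against 3 the exact two-sided permutation test cannot go below p = 0.1. Each of the 27 had that value, or 0.178 after Benjamini-Hochberg adjustment over the 48, so no ratio passed the threshold by this test. The ratio of Slc2a1 to Slc2a3 was 8.58-fold lower in DRG than in Astrocytes and 9.24-fold below Astrocytes in OPC, with no overlap in either, and DRG and OPC overlapped.

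Glucose is trapped by hexokinase and then isomerised, and Hk1 and Gpi1 were higher in DRG than in both glial types. Hk1, the hexokinase that is bound to mitochondria in brain, was at 11.6, 10.4 and 11.3 CPM in Astrocytes, 40.9, 79.8 and 62.5 in DRG, and 10.5, 12.3 and 14.6 in OPC, counted from the stretches that separate its 2 transcripts. It was 5.52-fold higher in DRG against Astrocytes (log2 2.46 ± 0.27, adjusted p = 7.37e-05) and 4.91-fold above OPC (2.29 ± 0.27, adjusted p = 0.000109, edgeR), with no overlap. Hk2, the inducible hexokinase, was at 47.7, 66.3 and 33.2 CPM in Astrocytes, 62.7, 162 and 44.8 in DRG, and 26.8, 21 and 22 in OPC. Its DRG libraries overlapped those of Astrocytes and lay above those of OPC, from which they differed 3.87-fold (1.95 ± 0.46, adjusted p = 0.00536, and 1.21 without DRG 2). In OPC against Astrocytes Hk2 missed the threshold at −1.08 ± 0.45 (adjusted p = 0.0722) although the groups did not overlap. It passed there in 5 of 17 alternatives, with DESeq2 (0.0333), only the 6 libraries compared (0.013), no TMM scaling (0.0495), or without DRG 2 (0.0158) or DRG 3 (0.0457). In DRG against Astrocytes it passed without DRG 3 (1.20, adjusted p = 0.039, edgeR). The Hk1 to Hk2 ratio was 3.26-fold higher in DRG and 2.28-fold above Astrocytes in OPC, without overlap.

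Gpi1, which converts glucose 6-phosphate to fructose 6-phosphate, was at 641, 566 and 664 CPM in Astrocytes, 2785, 3163 and 2133 in DRG, and 495, 399 and 551 in OPC. The lowest DRG library held more than 3 times the CPM of any glial library. It was 4.32-fold higher in DRG against Astrocytes (log2 2.11 ± 0.22, adjusted p = 4.92e-05) and 5.59-fold above OPC (2.48 ± 0.22, adjusted p = 2.34e-05, edgeR). With 934 CPM per kb in DRG it had the highest level per length of the 27 single-transcript genes there, ahead of Tpi1 (875), Pgam1 (854), Pgk1 (844) and Eno2 (725), levels whose order among themselves was not tested.

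Phosphofructokinase, the committed step, is built from the subunits Pfkl (liver type), Pfkm (muscle type) and Pfkp (platelet type). Pfkp was at 47.7, 56.3 and 73 CPM in Astrocytes, 114, 178 and 137 in DRG, and 5.43, 7.29 and 9.46 in OPC. These 3 ranges did not overlap, with DRG highest and OPC lowest. It was 2.43-fold higher in DRG against Astrocytes (log2 1.28 ± 0.27, adjusted p = 0.00267), 19.4-fold above OPC (4.27 ± 0.30, adjusted p = 7.87e-06) and 7.98-fold below Astrocytes in OPC (−3.00 ± 0.28, adjusted p = 6.03e-05, edgeR). Pfkl was at 192, 75.3 and 107 CPM in Astrocytes, 213, 314 and 165 in DRG, and 115, 40.3 and 57 in OPC. It was called only in DRG against OPC (3.26-fold, 1.71 ± 0.47, adjusted p = 0.0109); in DRG against Astrocytes it passed without Astrocytes 1 (1.33, adjusted p = 0.0324), and in OPC against Astrocytes without OPC 1 (−1.35, adjusted p = 0.0355). Pfkm held 8.9 to 15.3 CPM in DRG and 10.6 to 13.8 in Astrocytes, which overlapped, and 5.25 to 7.41 in OPC, 1.99-fold below Astrocytes (adjusted p = 0.0172, edgeR). That call was lost without OPC 1 (adjusted p = 0.0507) or OPC 2 (adjusted p = 0.0664). In OPC the Pfkp to Pfkl ratio was 5.61-fold lower than in DRG and 4.47-fold lower than in Astrocytes, without overlap.

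The regulators Pfkfb2 and Pfkfb3 make and degrade fructose 2,6-bisphosphate, the activator of phosphofructokinase. Pfkfb2 was at 28.3 to 35.8 CPM in Astrocytes, 22.7 to 32.2 in DRG and 14.6 to 35.6 in OPC and was not called anywhere. Pfkfb3 has 8 transcripts, and all its reads except 1 fell in the only one with specific bases. Those reads numbered 4, 9 and 1 in Astrocytes, 5, 78 and 55 in DRG, and 0, 8 and 8 in OPC. DRG 1 lay within the glial range. Pfkfb3 was called higher in DRG than in Astrocytes (log2 3.33 ± 1.09, adjusted p = 0.025) and than in OPC (3.18 ± 1.08, adjusted p = 0.029, edgeR). Against Astrocytes the call was lost without Astrocytes 1 (adjusted p = 0.0602), Astrocytes 3 (0.0826) or DRG 3 (0.0649), and the log2 value was 4.26 without Astrocytes 2. Against OPC it was lost without DRG 3 (0.0749), OPC 1 (0.0606) or OPC 2 (0.0706), and the value was 3.90 without OPC 3.

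Aldolase splits the sugar into a pair of triose phosphates. Aldoc, the brain form and a known astrocyte gene, was at 366, 313 and 404 CPM in Astrocytes, 641, 786 and 291 in DRG, and 164, 107 and 121 in OPC. OPC lay below both other types, and DRG 3 lay below every astrocyte library while the other two lay above. Aldoc was 4.38-fold higher in DRG than in OPC (log2 2.13 ± 0.35, adjusted p = 0.000688) and 2.76-fold below Astrocytes in OPC (−1.47 ± 0.34, adjusted p = 0.00623, edgeR). DRG against Astrocytes missed the threshold (0.67 ± 0.34, adjusted p = 0.115) and passed without DRG 3 (0.99, adjusted p = 0.00941).

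Aldoa, the form of muscle and most tissues, is counted here only through the stretches specific to each of its 3 transcripts. Their sum was 3.85 to 11.7 CPM in Astrocytes, 14.8 to 23.2 in DRG and 1.54 to 3.9 in OPC. Its call in DRG against OPC (6.46-fold, log2 2.69 ± 0.49, adjusted p = 0.00133) held in every alternative tried, with values from 1.75 to 3.23. Its 3 transcripts did not move together. In the fit over transcripts the one most abundant over all 9 libraries, with 525, 88 and 154 reads in Astrocytes and 119, 312 and 155 in DRG, differed by −0.16 (adjusted p = 0.829), while the other two were 5.8-fold and 11.5-fold higher in DRG than in Astrocytes (adjusted p = 0.000141 and 0.00202, edgeR). The sum was called higher in DRG than in Astrocytes (1.32 ± 0.47, adjusted p = 0.035), a call lost without Astrocytes 2 (0.0967) or Astrocytes 3 (0.102), DRG 2 (0.109) or DRG 3 (0.0627) or OPC 2 (0.0507), and without TMM scaling (0.0807). Its call in OPC against Astrocytes (−1.37 ± 0.47, adjusted p = 0.0365, edgeR) was lost without Astrocytes 1 (0.131) or Astrocytes 3 (0.0592), DRG 3 (0.0538) or OPC 1 (0.102) or OPC 2 (0.0831), and with only the 6 libraries compared (0.0664). With replicate number as a block, both calls against Astrocytes were lost (adjusted p = 0.0711 for DRG and 0.0765 for OPC, edgeR).

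Tpi1, Pgam1 and Pgk1, which act below aldolase, were higher in DRG than in both glial types. Tpi1, triose phosphate isomerase, was at 428, 368 and 383 CPM in Astrocytes, 1307, 1668 and 1242 in DRG, and 246, 234 and 326 in OPC. The 3 ranges did not overlap. It was 3.58-fold higher in DRG against Astrocytes (log2 1.84 ± 0.20, adjusted p = 7.17e-05) and 5.23-fold above OPC (2.39 ± 0.21, adjusted p = 2.06e-05, edgeR). Its smaller difference between OPC and Astrocytes (−0.55 ± 0.20, adjusted p = 0.0426) missed the threshold in 8 alternatives, among them without Astrocytes 1 (0.101), Astrocytes 2 (0.0639) or Astrocytes 3 (0.088), DRG 3 (0.0576), or OPC 1 (0.122) or OPC 2 (0.143).

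Pgam1, phosphoglycerate mutase, was at 428, 588 and 628 CPM in Astrocytes, 1280, 1941 and 1324 in DRG, and 570, 584 and 748 in OPC. It was 2.76-fold higher in DRG against Astrocytes (log2 1.47 ± 0.24, adjusted p = 0.000741) and 2.39-fold above OPC (1.26 ± 0.24, adjusted p = 0.00173, edgeR). Pgk1, phosphoglycerate kinase, showed a smaller difference in the same direction, with 912 to 1070 CPM in Astrocytes, 1336 to 1786 in DRG and 823 to 1060 in OPC. It was 1.54-fold higher in DRG than in Astrocytes (0.62 ± 0.19, adjusted p = 0.0182) and 1.67-fold above OPC (0.74 ± 0.19, adjusted p = 0.00792, edgeR). The former was lost without Astrocytes 2 (0.0619) or DRG 2 (0.0691) and without TMM scaling (0.111). Gapdh, often used as a reference gene, is counted here through a 222-base stretch of its main transcript. It held 125 to 206 CPM in Astrocytes, 263 to 470 in DRG and 133 to 310 in OPC. Gapdh was 2.13-fold higher in DRG than in Astrocytes (1.09 ± 0.35, adjusted p = 0.0223), a call lost without Astrocytes 1 (0.064), DRG 2 (0.0759) or DRG 3 (0.0556) and without TMM scaling (0.0635). In DRG against OPC it missed the threshold (0.80 ± 0.35, adjusted p = 0.0725, edgeR). It passed there in 6 of 17 alternatives, among them with DESeq2 (0.035), with replicate number as a block (0.00923), and without DRG 1 (0.0435) or OPC 3 (0.0112, edgeR).

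Enolase has a neuronal and a general form, and only the neuronal form was called. Eno2, the neuron-specific enolase, was at 39.7, 52.8 and 24.3 CPM in Astrocytes, 2003, 2338 and 1738 in DRG, and 10.2, 11.7 and 11.1 in OPC. Every DRG library lay far above every glial one, and every OPC library below every astrocyte one. It was 52.1-fold higher in DRG against Astrocytes (log2 5.70 ± 0.33, adjusted p = 2.47e-06), 184-fold above OPC (7.52 ± 0.36, adjusted p = 1.64e-06) and 3.53-fold below Astrocytes in OPC (−1.82 ± 0.28, adjusted p = 0.000703, edgeR). Eno1, the enolase of most tissues, was at 74.5, 126 and 134 CPM in Astrocytes, 102, 173 and 114 in DRG, and 112, 103 and 164 in OPC. Its groups overlapped in all 3 comparisons, with log2 differences of 0.22, 0.04 and 0.18 (adjusted p = 0.55, 0.913 and 0.65). Eno1 shares nearly all of its sequence with the copy Eno1b, which held a mean of 317, 381 and 350 CPM in Astrocytes, DRG and OPC, so the split of reads between the copies is uncertain. Eno1b has 2 transcripts, so its values come from isoform-specific reads. The ratio of Eno2 to Eno1 was 0.533, 0.417 and 0.181 in Astrocytes, 19.6, 14 and 15.2 in DRG, and 0.0918, 0.114 and 0.0674 in OPC. It was 46.4-fold higher in DRG than in Astrocytes and 178-fold above OPC, and 3.85-fold below Astrocytes in OPC, with no overlap in any.

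**Figure D3:**
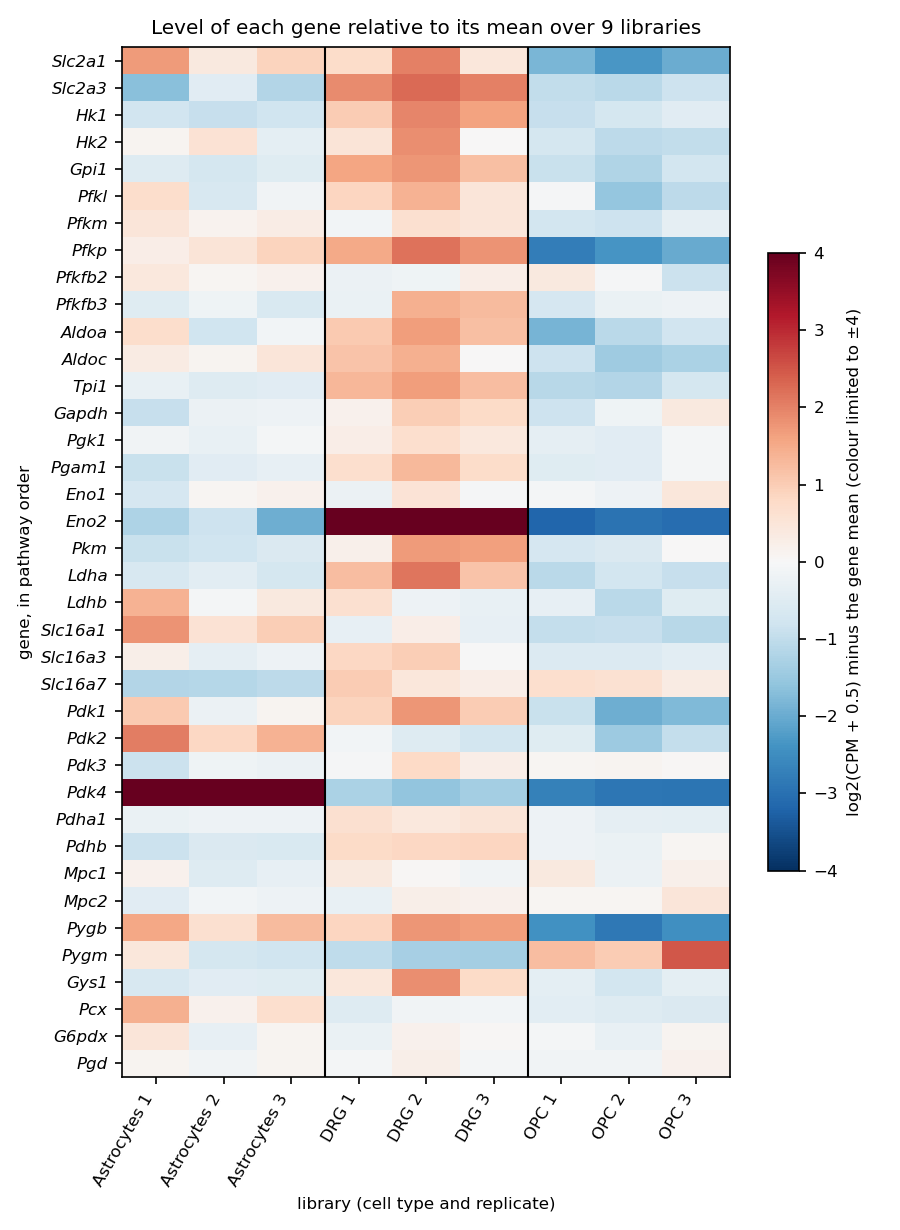
Level of each of the 38 genes (rows, in pathway order) in each of the 9 libraries (columns), as log2(CPM + 0.5) minus the gene's mean over the libraries, red above and blue below it, with colours limited to ±4. The Eno2 row is darkest red in the 3 DRG libraries and the Pdk4 row in the 3 Astrocytes libraries, while Slc2a1, Pfkp and Pygb are blue in the 3 OPC libraries.

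Lactate dehydrogenase interconverts pyruvate and lactate, with Ldhb as the heart-type and Ldha as the muscle-type subunit. Ldhb was at 1402, 506 and 693 CPM in Astrocytes, 839, 465 and 439 in DRG, and 426, 254 and 385 in OPC. Astrocytes 1 stood highest, and the OPC libraries lay below all others, narrowly in the case of DRG 3. Only OPC against Astrocytes was called (2.44-fold lower, log2 −1.29 ± 0.41, adjusted p = 0.0273), and this was lost without Astrocytes 1 (−0.76, adjusted p = 0.0961) or OPC 2 (−1.08, adjusted p = 0.0982, edgeR). DRG differed from Astrocytes by −0.58 ± 0.41 (adjusted p = 0.25) and from OPC by 0.71 ± 0.41 (adjusted p = 0.162). Astrocytes 1 is also the library with the most microglia marker RNA, and the part of that in its Ldhb level was not tested.

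Ldha could not be measured as a gene. Its 3 transcripts share nearly all their bases, and the counts rest on 307 bases of 1 transcript, which held 12, 15 and 7 reads in Astrocytes, 64, 214 and 78 in DRG, and 2, 9 and 4 in OPC. The other two held 0 reads in every library, with 5 and 0 specific bases. The counted transcript was 11.1-fold higher in DRG against Astrocytes (log2 3.47 ± 0.56, adjusted p = 0.000657) and 25.9-fold above OPC (4.69 ± 0.61, adjusted p = 0.000182, edgeR, and 5.31 without OPC 2). The ratio of Ldhb to Ldha therefore says nothing about the subunit makeup of the enzyme here.

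Of the monocarboxylate transporters, Slc16a1 (MCT1) is known in glia and endothelium, Slc16a7 (MCT2) as the high-affinity neuronal form, and Slc16a3 (MCT4) as the exporter of glycolytic cells. Slc16a1 was at 647, 281 and 370 CPM in Astrocytes, 149, 224 and 149 in DRG, and 97.3, 99.5 and 86.7 in OPC. The 3 ranges did not overlap, with Astrocytes highest and OPC lowest. Slc16a1 was 2.48-fold lower in DRG against Astrocytes (log2 −1.31 ± 0.31, adjusted p = 0.00497) and 4.58-fold below Astrocytes in OPC (−2.19 ± 0.32, adjusted p = 0.000516, edgeR). The 1.84-fold higher level in DRG than in OPC (0.88 ± 0.30, adjusted p = 0.0316) lost its call without DRG 2 (0.12) or OPC 1 (0.0683) or OPC 2 (0.0706), and without TMM scaling (0.0623).

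Slc16a7 ran the other way. It was at 2.61, 2.68 and 2.85 CPM in Astrocytes, 14, 8.91 and 7.8 in DRG, and 10.6, 10.2 and 8.16 in OPC. DRG and OPC overlapped and both stood above Astrocytes, by 3.7-fold for DRG (log2 1.89 ± 0.29, adjusted p = 0.000529) and 3.56-fold for OPC (1.83 ± 0.29, adjusted p = 0.000922, edgeR). Per length Slc16a1 remained the more abundant in each type, at 97.8 against 1.12 CPM per kb in Astrocytes, 39.3 against 4.16 in DRG and 21.4 against 4 in OPC. The ratio of Slc16a1 to Slc16a7 was 8.56-fold lower in DRG and 15.2-fold below Astrocytes in OPC, and 1.78-fold higher in DRG than in OPC, with no overlap in any.

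Slc16a3 had at most 51 reads in any library although 1 of its 3 transcripts has 1868 specific bases. Its 23, 5 and 7 reads in Astrocytes, 27, 51 and 11 in DRG, and 2, 2 and 4 in OPC gave a call in DRG against OPC (12.1-fold, log2 3.60 ± 0.74, adjusted p = 0.00251, edgeR, and 4.30 without OPC 3). Lower levels in OPC than in Astrocytes (−2.03 ± 0.75, adjusted p = 0.0472) missed the threshold in 10 of the 16 alternatives in which it was tested, among them without Astrocytes 1 (−1.33, adjusted p = 0.204) or Astrocytes 3 (0.0694), DRG 1 (0.0627) or DRG 2 (0.0602), or OPC 1 (0.125) or OPC 2 (0.144), and were −2.63 without OPC 3. In DRG against Astrocytes Slc16a3 was not called (1.57 ± 0.64, adjusted p = 0.0579) and passed without Astrocytes 1 (0.0222) or DRG 3 (0.0273, edgeR).

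**Figure D4:**
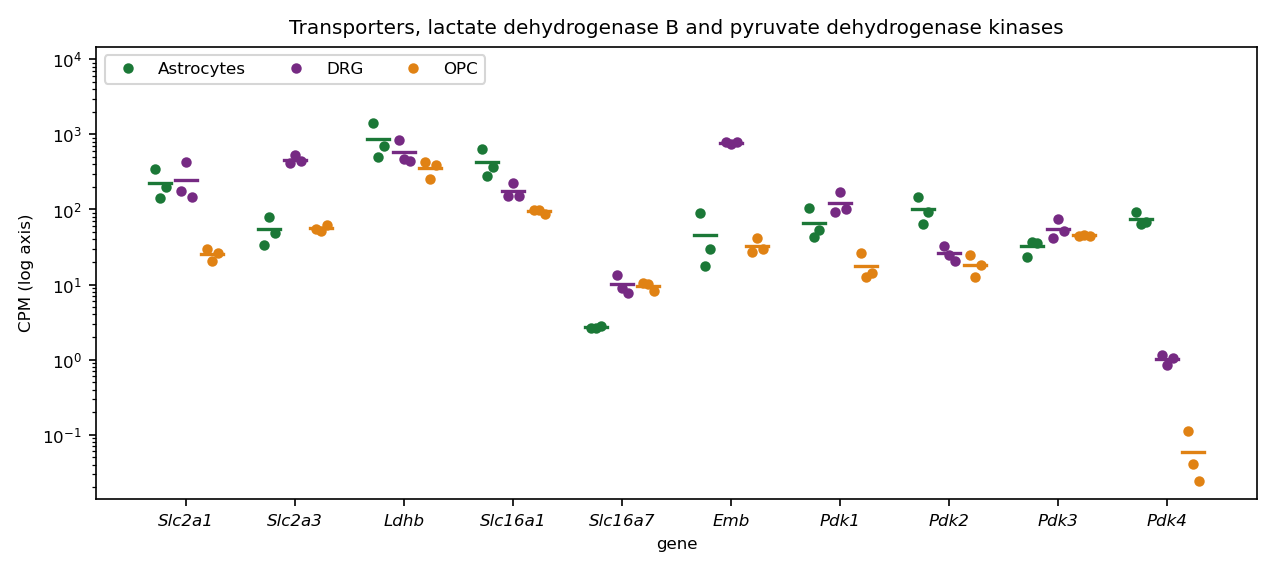
CPM (y axis, log scale) of glucose and monocarboxylate transporters, Ldhb, the transporter chaperone Emb and the pyruvate dehydrogenase kinases in each library (points) with group means (lines). The Slc2a3 and Emb points of DRG lie above those of both glial types, and the Pdk4 points run from 92 CPM in Astrocytes 1 to 0.0241 CPM in OPC 3.

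The cell types differed in their mix of pyruvate dehydrogenase kinases, the enzymes that phosphorylate and switch off the pyruvate dehydrogenase complex. Pdk4, the form known from fasting and fat oxidation, was at 92, 63.6 and 69.1 CPM in Astrocytes, 1.15, 0.842 and 1.06 in DRG, and 0.112, 0.0407 and 0.0241 in OPC, where it had 5, 2 and 1 reads. The 3 ranges stood apart from each other. Pdk4 was 73.7-fold lower in DRG against Astrocytes (log2 −6.20 ± 0.38, adjusted p = 3.08e-06) while its DRG level was 16.4-fold above OPC (4.03 ± 0.43, adjusted p = 6.11e-05, and 4.82 without OPC 1). In OPC against Astrocytes the fitted value was −10.24 ± 0.47 (adjusted p = 3.46e-06, edgeR, and −11.02 without OPC 1), a size that rests on 8 OPC reads in all.

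Pdk2, the most widely expressed form, was at 146, 63.1 and 93.4 CPM in Astrocytes, 33, 24.8 and 20.9 in DRG, and 24.9, 12.5 and 18 in OPC. DRG and OPC overlapped and lay below Astrocytes, by 3.85-fold for DRG (log2 −1.94 ± 0.36, adjusted p = 0.00148) and 5.47-fold for OPC (−2.45 ± 0.37, adjusted p = 0.000669, edgeR). Pdk1, the hypoxia-induced form, was at 103, 42.8 and 53.9 CPM in Astrocytes, 93.4, 171 and 101 in DRG, and 26.5, 12.6 and 14.4 in OPC. Its OPC libraries were the lowest, 6.83-fold below DRG (2.77 ± 0.44, adjusted p = 0.000544) and 3.73-fold below Astrocytes (−1.90 ± 0.42, adjusted p = 0.00492, edgeR). DRG against Astrocytes missed the threshold (0.87 ± 0.41, adjusted p = 0.0928) and passed without Astrocytes 1 (1.33, adjusted p = 0.0166).

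Pdk3 had the smallest differences of the 4 kinases. It was at 23, 37.4 and 36.2 CPM in Astrocytes, 41.5, 74.6 and 51 in DRG, and 45, 46.2 and 44.4 in OPC, with DRG 1.73-fold above Astrocytes (log2 0.79 ± 0.26, adjusted p = 0.0262). That call was lost without Astrocytes 1 (0.0728) or DRG 2 (0.113) and without TMM scaling (0.098, edgeR). Per length, the order of mean levels in Astrocytes was Pdk2 at 44.9 ± 18.7 CPM per kb (SD, n = 3), Pdk4 at 21.5 ± 4.33, Pdk3 at 15.2 ± 3.76 and Pdk1 at 12.8 ± 6.15, where Pdk3 and Pdk1 lay within each other's SD. In DRG it was Pdk3 at 26.3 ± 8.06 and Pdk1 at 23.5 ± 8.27, which also lay within each other's SD, then Pdk2 at 11.7 ± 2.75 and Pdk4 at 0.292. In OPC it was Pdk3 at 21.4 ± 0.432, Pdk2 at 8.22 ± 2.76, Pdk1 at 3.44 ± 1.46 and Pdk4 at 0.0169. Against Pdk2 within a library, Pdk4 was 19.6-fold lower in DRG and 226-fold below Astrocytes in OPC, Pdk3 was 6.34-fold higher in DRG and 7.69-fold higher in OPC, and Pdk1 was 7-fold higher in DRG and 1.46-fold higher in OPC, all without overlap.

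Both E1 subunits of the complex were higher in DRG than in either glial type. They are Pdha1, at 332 to 351 CPM in Astrocytes, 535 to 627 in DRG and 305 to 350 in OPC, and Pdhb, at 96 to 117, 298 to 318 and 144 to 183 CPM. Pdha1 was 1.68-fold higher in DRG against Astrocytes (log2 0.75 ± 0.15, adjusted p = 0.002) and 1.79-fold above OPC (0.84 ± 0.15, adjusted p = 0.00106, edgeR). Pdhb was 2.83-fold and 1.94-fold higher (1.50 ± 0.16, adjusted p = 5.86e-05, and 0.95 ± 0.16, adjusted p = 0.000756, edgeR). The 1.46-fold higher Pdhb level in OPC than in Astrocytes (0.55 ± 0.16, adjusted p = 0.0168) lost its call without Astrocytes 1 (0.0575) or OPC 3 (0.138), and with only the 6 libraries compared (0.101). Mpc1 and Mpc2, which form the mitochondrial pyruvate carrier, were not called in any comparison, with Mpc1 at 99.6 to 186 and Mpc2 at 49 to 93.2 CPM over the 9 libraries and their ratio overlapping throughout. Parts of Pdha1 and Mpc1, 21.2% and 11.5% of their bases, overlap transcripts of other genes.

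Of the glycogen genes, Pygb was lowest in OPC, Pygm lowest in DRG and Gys1 highest in DRG. Pygb, the brain glycogen phosphorylase that releases glucose from glycogen, was at 1228, 658 and 1014 CPM in Astrocytes, 772, 1421 and 1336 in DRG, and 78.7, 57.8 and 75.9 in OPC. Astrocytes and DRG overlapped, and the highest OPC library lay below the lowest of both. Pygb was 16.6-fold higher in DRG than in OPC (log2 4.05 ± 0.34, adjusted p = 1.67e-05) and 13.7-fold below Astrocytes in OPC (−3.77 ± 0.33, adjusted p = 4.49e-05, edgeR), while DRG and Astrocytes differed by 0.28 ± 0.30 (adjusted p = 0.436).

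Pygm, the muscle phosphorylase that astrocytes are also known to express, was at 2.11, 0.665 and 0.581 CPM in Astrocytes, 0.44, 0.253 and 0.232 in DRG, and 3.93, 3.32 and 10.1 in OPC. OPC lay highest and DRG lowest, with no overlap, and Pygm was the only gene of the 38 called lower in DRG than in OPC (18.8-fold, log2 −4.23 ± 0.71, adjusted p = 0.000794, edgeR, and −3.31 without OPC 3). It was 5.11-fold above Astrocytes in OPC (2.35 ± 0.64, adjusted p = 0.0128), a call lost without OPC 3 (1.53, adjusted p = 0.0732), while the value was 3.20 without Astrocytes 1. The lower level in DRG than in Astrocytes (−1.88 ± 0.67, adjusted p = 0.035, edgeR) lost its call without Astrocytes 1 (−1.04, adjusted p = 0.158) or DRG 2 (0.106) or DRG 3 (0.107). That call was also lost with replicate number as a block (adjusted p = 0.0508, edgeR). Skeletal muscle markers summed to 0.997 to 2.54 CPM in all 9 libraries. Per length Pygm stayed far below Pygb in each type, at 0.389 against 247 CPM per kb in Astrocytes, 0.107 against 301 in DRG and 2.01 against 18.1 in OPC. The ratio of Pygm to Pygb was 71.7-fold above Astrocytes in OPC and 267-fold lower in DRG than in OPC, without overlap.

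Gys1, the glycogen synthase outside the liver, was at 60.1, 68 and 67.2 CPM in Astrocytes, 130, 342 and 161 in DRG, and 71.4, 56.7 and 70.9 in OPC. DRG lay above both glial types, which overlapped. It was 3.24-fold higher in DRG against Astrocytes (log2 1.70 ± 0.33, adjusted p = 0.00193) and 3.18-fold above OPC (1.67 ± 0.33, adjusted p = 0.00208, edgeR).

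**Figure D5:**
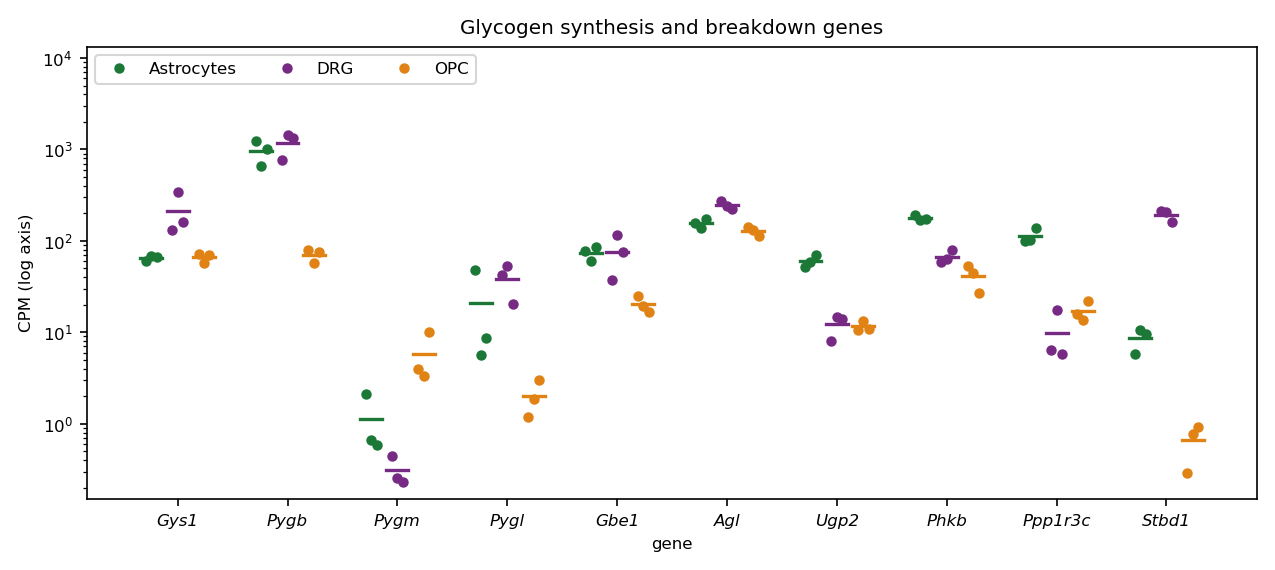
CPM (y axis, log scale) of genes of glycogen synthesis and breakdown in each library (points) with group means (lines). Pygb lies between 57.8 and 78.7 CPM in OPC and between 658 and 1421 CPM in the other 6 libraries, and Stbd1 between 161 and 211 CPM in DRG and at most 10.5 CPM in the glia.

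Pcx, pyruvate carboxylase, refills the citric acid cycle and is known in brain as an astrocyte enzyme. It was at 19.1, 7.86 and 11.3 CPM in Astrocytes, 4.67, 6.15 and 6.4 in DRG, and 4.96, 4.64 and 4.45 in OPC. Every astrocyte library lay above all others. Pcx was 2.72-fold below Astrocytes in OPC (log2 −1.44 ± 0.35, adjusted p = 0.00756) and 2.22-fold lower in DRG (−1.15 ± 0.35, adjusted p = 0.0175, edgeR), the latter lost without Astrocytes 1 (−0.74, adjusted p = 0.0557) or DRG 1 (−1.01, adjusted p = 0.0556). With the most abundant transcript in place of the sum, the call in DRG was also lost (−0.95, adjusted p = 0.0522, edgeR). One of the 2 Pcx transcripts, told apart by a 97-base first exon at chr19:4594346-4594442, held 79, 57 and 76 reads in Astrocytes and 0 in all 6 other libraries. These are 7.79%, 17.2% and 18.6% of the isoform-specific Pcx reads in Astrocytes. Taking 3 reads as the most that a count of 0 allows, 0 of 138, 292 and 248 such reads in DRG allow shares of up to 2.17%, 1.03% and 1.21%, and in OPC 0 of 222, 228 and 185 allow up to 1.35%, 1.32% and 1.62%.

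The oxidative pentose phosphate pathway makes NADPH. G6pdx and Pgd, its dehydrogenases, held 106 to 186 and 156 to 201 CPM over all 9 libraries. Neither was called in any comparison, with log2 differences between −0.20 and 0.07 and SEs of 0.23 for G6pdx and 0.17 for Pgd, and their ratio overlapped in all 3 comparisons. With Pfkfb2, Eno1, Mpc1 and Mpc2 they made up the 6 genes of the 38 that were called nowhere.

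Other genes of the same pathways, from a list of 93 by role, were examined next, of which 80 were tested. In DRG against Astrocytes 29 were higher and 22 lower, in DRG against OPC 31 and 15, and in OPC against Astrocytes 20 and 24, or 63.8%, 57.5% and 55% called, close to the 60.2%, 59.5% and 51.8% of all genes. Glycogen genes beyond the 38 were higher in DRG than in OPC for 12 of 23 and lower for 0. That is 52.2% called, where 59.5% of all genes were called, 28.4% higher and 31.1% lower. In DRG against Astrocytes 12 of the 23 were higher and 6 lower. That is 78.3% called, where 60.2% of all genes were called, 27.4% higher and 32.8% lower. Stbd1, which tethers glycogen to membranes, was 292-fold higher in DRG than in OPC (log2 8.19, adjusted p = 3.63e-06) and 13-fold below Astrocytes in OPC (−3.70, adjusted p = 0.000124, edgeR). Pgm2l1, which makes glucose 1,6-bisphosphate, was at 378 to 451 CPM in DRG and was 57.1-fold higher there than in Astrocytes (5.84, adjusted p = 3.64e-06) and 23.5-fold above OPC (4.55, adjusted p = 1.23e-05, edgeR). Pygl, the liver phosphorylase, was 19.1-fold higher in DRG than in OPC (4.26, adjusted p = 0.00228, and 4.91 without OPC 3), and Phkg1, the muscle catalytic subunit of phosphorylase kinase, was at 40.9, 7.79 and 13.3 CPM in Astrocytes and at most 0.268 CPM in OPC (−7.60, adjusted p = 0.0088, edgeR, with −6.63 without Astrocytes 1 and −9.70 without OPC 1).

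Among 7 further glucose transporters, 4 were lower and 1 higher in DRG than in Astrocytes (71.4% called, where 32.8% of all genes were lower and 27.4% higher). Slc2a4, the insulin-regulated carrier, was at 27.3 to 36.9 CPM in Astrocytes, 0.147 to 0.508 in DRG and 1.03 to 1.81 in OPC, 85.9-fold lower in DRG (log2 −6.43, adjusted p = 1.25e-05) and 20.4-fold lower in OPC (−4.35, adjusted p = 0.000103, edgeR) than in Astrocytes. Slc2a12 and Slc2a10 were also lower in DRG than in Astrocytes, by 78.6-fold and 40.7-fold (adjusted p = 0.000148 and 0.000105, edgeR), Slc2a12 with 39.3 CPM in Astrocytes 1 against 6.7 and 11 in the other two. Its log2 value of −6.30 was −5.20 without Astrocytes 1. Txnip, an inhibitor of glucose uptake that glucose induces, and Mlxipl, a glucose-sensing transcription factor, held 6.66 to 22 and 2.16 to 13.2 CPM in Astrocytes and were lower in DRG (−5.90 and −5.39, adjusted p = 0.000222 and 0.000511) and in OPC (−4.31 and −4.14, adjusted p = 0.00111 and 0.00193, edgeR). Without Astrocytes 1 the Mlxipl values were −4.36 in DRG and −3.10 in OPC, without OPC 1 its OPC value was −4.75, and without OPC 3 that of Txnip was −5.25. Txnip has 2 transcripts, so its values come from isoform-specific reads and are not the level of the gene.

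Emb, a membrane chaperone that monocarboxylate transporters need, was at 795, 735 and 781 CPM in DRG against 90.5, 17.8 and 29.6 in Astrocytes and 27.1, 41.7 and 29.4 in OPC. It was 23.5-fold higher in DRG than in OPC (log2 4.56, adjusted p = 0.000156, edgeR). Bsg, the other chaperone of this kind, has several transcripts, and its isoform-specific reads were 54.1-fold higher in DRG than in OPC (5.76, adjusted p = 0.000957, edgeR), from at most 21.1 CPM, with values of 4.91 without DRG 2 and 6.40 without OPC 2. Ldhd, which oxidises D-lactate, was 33.8-fold below Astrocytes in OPC (−5.08, adjusted p = 0.000431, and −3.98 without Astrocytes 1), and Gpd1, which carries NADH electrons to glycerol 3-phosphate, was 56-fold lower in DRG than in OPC (−5.81, adjusted p = 1.81e-05, edgeR). Of 8 NADH shuttle genes tested, 5 were higher and 2 lower in DRG than in Astrocytes (87.5% called, where 60.2% of all genes were). Other roles had lower shares. Of 10 further glycolysis genes tested, 3 were higher and 1 lower in DRG than in Astrocytes (40% called). Of 6 further pentose phosphate genes, 0 were higher and 1 lower in that comparison (16.7% called). Against OPC, 0 of these 6 were higher and 3 lower in DRG (50% called, where 59.5% of all genes were).

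Hypoxia-inducible factors bind core letters such as ACGTG near many glycolytic genes, and the promoters of the 38 genes were searched for these letters on both strands (CACGT on the other), a palindromic CACGTG counting on each. RefSeq promoters of 300 bases, from 250 before to 50 after the start (GRCm38.p6), were matched for 36 genes, with 55 promoters. The core was in 26 of the 55 (47.3%), where 19.6% of all 32851 promoters held it, and in at least 1 promoter of 22 of the 36 genes (61.1%), against 21.8% of all 27025 genes. A gene with more promoters has more chances of a match, and the counts were not corrected for this. Some promoters of the same gene overlap and hold the same match, as for Aldoa. A match describes letters and not a bound site. Promoters of 3 genes are printed, 5′ to 3′ with matches in capitals, because Pgk1 and Eno2 were both higher in DRG and Slc16a1 was highest in Astrocytes. Pgk1 lies at chrX:106186850-106187149 on the plus strand with 2 matches, Slc16a1 at chr3:104638414-104638713 on the plus strand with 3, and Eno2 at chr6:124769624-124769923 on the minus strand with 0.
Pgk1 promoter: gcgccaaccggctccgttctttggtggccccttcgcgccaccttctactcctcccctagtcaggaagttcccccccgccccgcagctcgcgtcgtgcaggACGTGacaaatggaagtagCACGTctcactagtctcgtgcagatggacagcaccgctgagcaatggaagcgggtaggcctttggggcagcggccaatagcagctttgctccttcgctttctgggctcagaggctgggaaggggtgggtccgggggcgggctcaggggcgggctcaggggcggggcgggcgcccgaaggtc
Slc16a1 promoter: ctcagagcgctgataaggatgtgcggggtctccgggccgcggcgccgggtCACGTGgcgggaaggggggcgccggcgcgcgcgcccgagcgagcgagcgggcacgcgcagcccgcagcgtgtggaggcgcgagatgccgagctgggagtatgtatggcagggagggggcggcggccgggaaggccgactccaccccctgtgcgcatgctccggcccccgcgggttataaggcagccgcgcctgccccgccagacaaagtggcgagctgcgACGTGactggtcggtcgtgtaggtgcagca
Eno2 promoter: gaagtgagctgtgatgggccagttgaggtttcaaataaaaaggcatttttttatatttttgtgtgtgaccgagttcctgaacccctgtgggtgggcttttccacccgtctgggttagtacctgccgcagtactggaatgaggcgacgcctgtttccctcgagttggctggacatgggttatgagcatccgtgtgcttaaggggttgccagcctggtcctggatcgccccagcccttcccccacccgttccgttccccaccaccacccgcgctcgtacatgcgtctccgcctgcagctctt
Hif1a, which codes for one of these factors, was at 106, 199 and 173 CPM in Astrocytes, 221, 132 and 78.6 in DRG, and 388, 290 and 174 in OPC, with overlap between all groups.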

How the data were processed

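Reads were aligned to mm10 with TopHat2 and counted with HTSeq, per the submitters' processing notes; no version, RefSeq release, counting mode or strand setting is given in the sources used here. The authors deposited raw read counts per RefSeq transcript, 1 file per library. From these, 33508 of 33787 accessions were given a gene symbol (33315 from RefSeq's table, 193 from GENCODE vM21; 279 had none) and summed to 24170 genes. Reads not assigned to a transcript stayed out of library sizes. The 38 genes and all other lists were chosen with earlier results of these data known. All 9 libraries were fitted with edgeR 4.0.16 (R 4.3.3), TMM scaling, filterByExpr with a minimum count of 10 and cell type as the only term; DESeq2 1.42.0 and 16 other settings were alternatives. SE was derived from each log2 fold change and its F value (size over the root of F). Ratios added 0.5 counts and used exact permutation tests. All 38 genes may be named; of the other pathway genes, the 6 largest called changes per comparison with a mean of at least 5 CPM in a group are named, and Eno1b and Hif1a were named after their values were seen. Exon positions and lengths are from GENCODE vM21 (GRCm38), and gene positions from RefSeq. The scripts were tested on simulated counts. The labels call the replicates biological, and no more is known of their origin.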

Additional observations from a re-analysis of the deposited data

How the results depend on the processing

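Over 17 alternatives, 67 called comparisons of the 38 genes gave 72 lost calls, in 16 of the comparisons, 26 calls were gained in 11 others, and the direction of 1 call turned. The lists of lost or gained calls given for single genes do not always name every alternative. With the most abundant transcript in place of the sum, Aldoa in DRG against Astrocytes was −0.15 (adjusted p = 0.832, edgeR), because its 3 transcripts differ. Genes lower in DRG than in Astrocytes numbered 5, and 3 without Astrocytes replicate 1 and OPC replicate 3 together. Leaving out each replicate in turn gave 13 to 18 genes higher and 3 to 5 lower in DRG than in Astrocytes, 23 to 26 higher and 1 lower in DRG than in OPC, and 1 to 4 higher and 10 to 15 lower in OPC than in Astrocytes. The count of 3 was reached without Astrocytes replicate 1 and the count of 1 without OPC replicate 3. With the replicate block the counts were 17 and 4, 27 and 1, and 3 and 13. Same-numbered libraries of different types deviated with correlations of −0.0357 to 0.128, so the numbers were not taken as pairs. With DESeq2 the counts were 18 and 5, 26 and 1, and 3 and 16. Without TMM scaling they were 14 and 5, 24 and 1, and 3 and 16. Few reads in at least 1 cell type limit the values of Pfkfb3, Ldha, Slc16a3, Pygm and Pdk4, and for Pfkfb3 and Ldha most transcripts have few or no specific bases.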
